A study of Mus musculus with 4 samples.

Results

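A set of 10 early neural genes was examined in mouse embryonic stem cells (mESCs), where the neural lineage has not yet been entered. The set holds the transcription factors *Pax6*, *Sox1*, *Neurog1*, *Otx1*, *Lhx5*, *Zic1*, *Pax3* and *Isl1* and the cytoskeletal markers *Nes* and *Tubb3*, and its members were chosen by name as rows of the gene count table. Of the 37310 genes in the table, 9 were members, since no row matched *Sox1*, and 8 of these had enough counts to be given an adjusted p. RNA-seq was compared between 2 libraries of the WT HATX line and 2 libraries of clone 2 labelled *Spen* KO in the same line. Both carry a doxycycline-inducible *Xist* transgene on a mixed genetic background, and both were grown in serum with leukemia inhibitory factor (LIF) on gelatin, with no treatment given in the labels. Spen is an RNA-binding repressor protein, and the study describes the WT and KO cells as haploid and the *Spen* gene as deleted in the KO. Each group is 1 line, and whatever else sets the clone apart from WT cannot be told apart from *Spen*. Nothing says that the libraries came from separate cultures, so p-values measure the spread between these libraries, which may be technical.

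When pluripotent cells leave the pluripotent state toward the nervous system, they first form neuroectoderm, a sheet of progenitors marked by Sox1 and Pax6. Regional factors such as Otx1 and Lhx5 in the forebrain and Zic1 and Pax3 at the dorsal edge of the neural plate pattern this sheet. Proneural factors such as Neurog1 then start neurogenesis, and Isl1 specifies motor and sensory neurons. Nestin (*Nes*) is an intermediate filament of neural progenitors, and class III beta-tubulin (*Tubb3*) is a tubulin typical of neurons. In bulk RNA, fewer expressing cells and less RNA per cell cannot be told apart.

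The libraries held 36667685 to 61908422 counts in all, over 21850 to 22591 genes. Normalized counts of *Spen* itself were 3716 and 3047 in WT against 7797 and 6242 in the KO-labelled libraries. They do not check the label, on which all directions given here depend. The study describes most of the gene as deleted in the KO, but also raised *Spen* mRNA where the protein is lost. Which exons these counts came from was not tested. Counts of 1 to 50 were even in 62.6% to 65.2% of cases per library, against 49.2% to 51.2% of counts above 500. Whether the mates of a pair were counted singly was not tested.

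Of the 8 early neural genes tested, *Pax6* was the only one called lower in the KO-labelled libraries (at least 2-fold, DESeq2 adjusted p under 0.001), and 0 were called higher. Of all 17710 genes tested, 3.15% were called lower and 1.36% higher by this rule. At an adjusted p under 0.05, *Pax6* and *Neurog1* were lower and 0 members were higher, against 15.8% of all genes lower and 16.4% higher. A count of 2 in 8 is therefore no result about the set. At an unadjusted p under 0.05, 3 members were lower and 1 was higher, against 19.5% and 20.1% of all genes. edgeR called 1 lower and 0 higher, against 3.27% and 1.34% of 17420 genes, and at the looser threshold it had 2 lower and 1 higher, against 20.8% and 19.5%. Fold changes were negative for 7 members and positive for 1, with a median log2 fold change of -0.57, against 0.0049 over all tested genes.

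**Figure D1:**
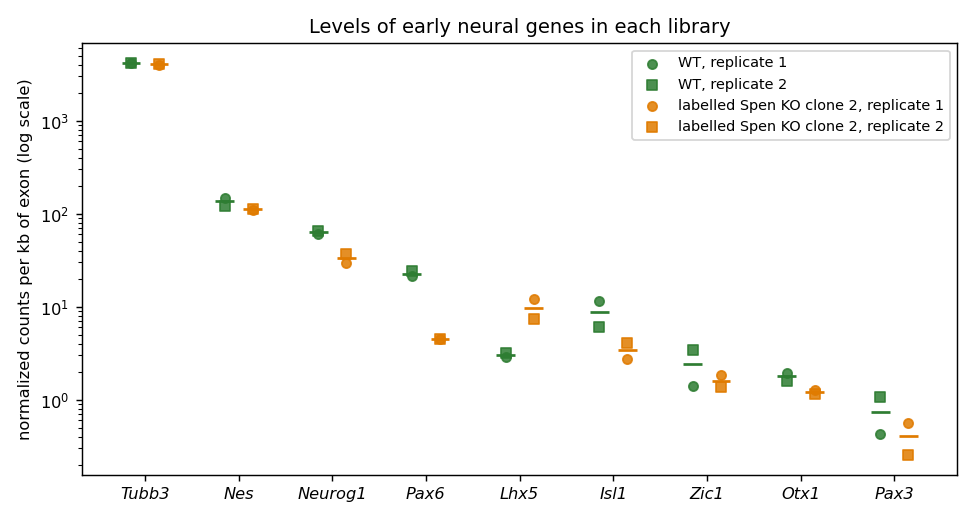
Normalized counts per kb of exon (log scale) of the 9 early neural genes with a row, in order of their mean level. Points are single libraries and short lines are group means (n = 2). *Tubb3* lies near 4180 in WT and 4040 in the KO-labelled libraries, while *Pax3* lies below 1 in both group means. *Pax6* and *Neurog1* are lower in both KO-labelled libraries, and *Lhx5* is higher in both.

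Levels between the genes were compared as normalized counts per kb of exon, which divides by the exonic length of each gene. *Tubb3* stood far above the others, at 4180 ± 5.94 in WT and 4040 ± 129 in the KO-labelled libraries (SD, n = 2), and 96.7% of genes with a count lay below it. *Nes* followed at 136 ± 18.8 and 111 ± 2.86. Among the transcription factors, *Neurog1* was highest, with 63.2 in WT and 33.3 in the KO-labelled libraries. *Pax6* came next in WT with 22.7, but with 4.51 it lay below *Lhx5* at 9.76 in the KO-labelled libraries. In WT the order then ran from *Isl1* (8.79) over *Lhx5* (3.05), *Zic1* (2.42) and *Otx1* (1.78) to *Pax3* (0.742). The WT libraries of *Zic1* spanned both WT values of *Lhx5* and of *Otx1*, so the order of these neighbours lay within their spread. *Pax6*, *Isl1*, *Lhx5*, *Zic1*, *Otx1* and *Pax3* were each under 1 TPM, a unit scaled for length and depth, in every library. The exonic length joins all annotated transcripts, at 19833 bases over 33 transcripts for *Pax6* against 1659 bases for *Neurog1*. Before this division *Pax6* had mean normalized counts of 450 in WT and 89.4 in the KO-labelled libraries. Those of *Neurog1* were 105 and 55.3, and those of *Lhx5* 8.33 and 26.7. The place of *Pax6* in the order, and its TPM, thus depend on that length.

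*Pax6* encodes a paired-domain homeobox factor of neural progenitors and the eye. The gene (ENSMUSG00000027168.12) lies on the plus strand of chromosome 2 at chr2:105509053-105543317 (mm9), with 33 annotated transcripts and 19833 exonic bases. WT libraries held 317 and 441 counts of *Pax6*, and the more deeply sequenced KO-labelled libraries held 103 and 114. After normalization these were 420 and 480 against 89.7 and 89.2, so that the groups lay far apart and the KO-labelled libraries were nearly equal. *Pax6* was thus 5.04-fold lower (log2 fold change -2.33 ± 0.23, SE; DESeq2 adjusted p 3.25e-23). Under every alternative tried it stayed called, with log2 fold changes between -2.44 and -2.23 and adjusted p-values between 1.00e-26 and 1.12e-06.

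The last part of *Pax6* is shared with another gene. *Elp4*, which encodes a subunit of the Elongator complex, lies on the opposite strand and shares 5542 exonic bases with *Pax6*, or 27.9% of its exonic length. The strand setting of the counting is not given in the sources used here. Reads of *Elp4* may therefore be among the *Pax6* counts, or reads over the shared bases may have been assigned to neither gene. Neither share was measured. *Elp4* had 650 and 718 normalized counts in WT and 738 and 678 in the KO-labelled libraries, which overlap, and its log2 fold change was 0.05 ± 0.14 with an adjusted p of 0.85. The antisense gene *Pax6os1* overlaps the body of *Pax6* but shares 0 exonic bases with it. No gene other than *Pax6* within 50 kb of it was called.

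*Pax6* has 2 promoters in RefSeq, each given here from 250 bases before to 50 after a start site because this is the member whose RNA was called. They come from build GRCm38.p6, at chr2:105668646-105668945 and chr2:105682213-105682512, both on the plus strand. The same sequences occur once each in mm9, at chr2:105508803-105509102, which spans the annotated start of the gene, and at chr2:105522370-105522669 inside the gene.
Pax6 promoter 1: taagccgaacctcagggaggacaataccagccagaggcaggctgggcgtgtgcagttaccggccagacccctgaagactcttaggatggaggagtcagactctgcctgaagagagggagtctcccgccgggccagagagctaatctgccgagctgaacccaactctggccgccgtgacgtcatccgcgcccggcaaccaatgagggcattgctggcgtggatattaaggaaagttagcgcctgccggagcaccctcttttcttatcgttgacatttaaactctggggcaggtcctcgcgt
Pax6 promoter 2: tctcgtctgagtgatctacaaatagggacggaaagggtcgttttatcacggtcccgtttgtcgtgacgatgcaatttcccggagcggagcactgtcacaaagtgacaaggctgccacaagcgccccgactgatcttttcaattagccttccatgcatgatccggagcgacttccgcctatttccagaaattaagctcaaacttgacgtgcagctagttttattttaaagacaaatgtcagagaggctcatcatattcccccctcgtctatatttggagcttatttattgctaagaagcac
Each promoter was searched on both strands for 3 motifs, which would stand in capitals: TGGGAA, the core bound by RBPJ, a Notch pathway factor that Spen is known to bind as a co-repressor; CAGCTG, an E-box of the kind that proneural factors bind; and ATGCAAAT, the octamer bound by POU factors such as Oct4. None of these letters occurred in either window. Of 32851 mouse promoters of the same length, 25.6% hold TGGGAA, 16.3% CAGCTG and 1.74% ATGCAAAT. The windows hold 18 and 16 CpG dinucleotides, against a median of 7 over all promoters.

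The genes whose pattern over the 4 libraries lay nearest to that of *Pax6* were 2410137F16Rik, *Ahr* and *Pramef12*, at Euclidean distances of 0.0673, 0.130 and 0.156 between centred log2(normalized count + 1) values. They lie on chromosomes 5, 12 and 4, away from *Pax6*. *Ahr*, which encodes the aryl hydrocarbon receptor, had 481 and 493 normalized counts in WT and 102 and 102 in the KO-labelled libraries. With 4 libraries in 2 groups, likeness mostly reflects an equal fold change between the groups.

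*Neurog1* encodes neurogenin 1, a basic helix-loop-helix factor that starts sensory and cortical neurogenesis. It is a single-exon gene (ENSMUSG00000048904.4) on the minus strand at chr13:56351866-56353524 (mm9). It had 76 and 100 counts in WT and 56 and 79 in the KO-labelled libraries, or 101 and 109 against 48.8 and 61.8 after normalization. Both KO-labelled libraries were below both WT libraries. The level was 1.89-fold lower (log2 fold change -0.92 ± 0.38, SE; DESeq2 adjusted p 0.0495), just under the looser threshold. Its place under 0.05 rests on the settings: adjusted p-values ran from 0.00926 with edgeR to 0.357, and it was lost without any 1 of the 4 libraries (0.155 to 0.357), with upper-quartile size factors (0.0582), with no independent filtering (0.0707), with chromosome medians removed (0.0616) and with the replicate number as a block (0.148).

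The *Neurog1* promoter is shown as that of the other member that was lower, from RefSeq (GRCm38.p6, chr13:56252131-56252430, minus strand).
Neurog1 promoter: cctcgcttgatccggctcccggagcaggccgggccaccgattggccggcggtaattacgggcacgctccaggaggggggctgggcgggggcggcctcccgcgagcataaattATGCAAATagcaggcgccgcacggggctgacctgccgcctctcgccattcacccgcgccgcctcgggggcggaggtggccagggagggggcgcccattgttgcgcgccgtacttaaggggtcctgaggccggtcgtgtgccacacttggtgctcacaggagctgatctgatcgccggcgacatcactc
The capitals mark an octamer, ATGCAAAT, whose first base lies at position -138 from the start site. Of the 8 RefSeq promoters found for 7 of the 10 members, the *Sox1* window also holds this octamer, and the *Isl1* window holds an E-box at -103. A letter match is not a measured binding site, and Oct4 binding was not analysed here. The *Neurog1* window holds 32 CpG dinucleotides.

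The relatives of these genes did not move as 1 group. Among the neurogenins, *Neurog3*, better known from the endocrine pancreas, had 42.4 and 28.3 normalized counts in WT and 114 and 97.8 in the KO-labelled libraries. It was higher by a log2 fold change of 1.59 ± 0.43 with an adjusted p of 0.0012, which just missed the stricter threshold, while *Neurog1* was lower. Among the Pax genes, *Pax8* was the most abundant relative, at 38.4 and 51.2 normalized counts in WT and 54.0 and 48.5 in the KO-labelled libraries, and its log2 fold change was 0.19 ± 0.49 with an adjusted p of 0.83.

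Next, the patterning factors were compared. They were close to the limit of detection, where 3 counts correspond to between 2.35 and 3.98 normalized counts, and every count of *Otx1*, *Lhx5*, *Zic1* and *Pax3* was even. *Lhx5*, a LIM-homeobox factor of the forebrain (ENSMUSG00000029595.5, chr5:120881895-120891466, plus strand, mm9), had 6 and 8 counts in WT and 38 and 26 in the KO-labelled libraries. Normalized, these were 7.95 and 8.71 against 33.1 and 20.3, and both KO-labelled libraries were higher. The log2 fold change was 1.68 ± 0.84 with a DESeq2 adjusted p of 0.12. edgeR gave an adjusted p of 0.0255, so *Lhx5* passed 0.05 with that tool alone, and neither tool called it. Its most abundant relative, *Lhx6*, had 231 and 295 normalized counts in WT and 394 and 358 in the KO-labelled libraries, a log2 fold change of 0.51 ± 0.21 with an adjusted p of 0.045.

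*Otx1*, a homeobox factor of the forebrain and midbrain (ENSMUSG00000005917.8, chr11:21894767-21902900, minus strand, mm9), had 8 counts in each library. Only the depth separates the normalized values of 10.6 and 8.71 in WT and 6.97 and 6.26 in the KO-labelled libraries. Its log2 fold change was -0.54 ± 1.15 with an adjusted p of 0.78, and the interval from -2.79 to 1.70 (95%, Wald) holds large changes in either direction. *Otx2*, which ESCs and epiblast cells use themselves, was far more abundant, at 948 ± 80.7 normalized counts in WT and 829 ± 27.6 in the KO-labelled libraries, and its log2 fold change was -0.19 ± 0.13 with an adjusted p of 0.28.

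*Zic1*, a zinc-finger factor of the neural plate border and cerebellum (ENSMUSG00000032368.8, chr9:91252896-91260648, minus strand, mm9), had 6 and 18 counts in WT and 12 and 10 in the KO-labelled libraries. Normalized, these were 7.95 and 19.6 against 10.4 and 7.83, so that one KO-labelled library lay between the WT libraries and the other just below both. The log2 fold change was -0.61 ± 1.01 with an adjusted p of 0.72, and it turned to 0.20 without WT replicate 2. *Zic4* on the opposite strand shares 60 exonic bases with it.

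*Pax3*, a factor of the dorsal neural tube, neural crest and muscle precursors (ENSMUSG00000004872.9, chr1:78097842-78193709, minus strand, mm9), had 2 and 6 counts in WT and 4 and 2 in the KO-labelled libraries. Its groups overlapped, the main fit gave no adjusted p, and no difference was detectable at this depth. *Isl1*, a LIM-homeobox factor of motor and sensory neurons (ENSMUSG00000042258.5, chr13:117088478-117099896, minus strand, mm9), had 22 and 14 counts in WT and 8 and 13 in the KO-labelled libraries. Normalized, these were 29.2 and 15.2 against 6.97 and 10.2, so the KO-labelled libraries were lower without overlap, but the log2 fold change of -1.36 ± 0.88 had an adjusted p of 0.25. Its only listed relative, *Isl2*, which takes part in motor neuron specification, had 28 and 36 counts in WT and 2 and 5 in the KO-labelled libraries. *Isl2* was called lower, with a log2 fold change of -3.74 ± 0.89 and an adjusted p of 0.0002.

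*Sox1* encodes an HMG-box factor of the SoxB1 group and is a defining marker of neuroectoderm. Neither its symbol nor a synonym matched a row of the table, and its level was not analysed here. Its RefSeq promoter (GRCm38.p6, chr8:12395269-12395568, plus strand) is shown to place the locus in the build of the counts, where it occurs once, at the same coordinates.
Sox1 promoter: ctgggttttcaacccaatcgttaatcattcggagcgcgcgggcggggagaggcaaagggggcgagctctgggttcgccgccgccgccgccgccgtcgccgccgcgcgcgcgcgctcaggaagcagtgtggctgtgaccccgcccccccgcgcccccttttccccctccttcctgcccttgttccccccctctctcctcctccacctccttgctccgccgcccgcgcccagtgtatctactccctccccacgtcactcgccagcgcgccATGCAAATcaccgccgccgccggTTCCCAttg
The capitals mark the octamer, with its first base at position 19 after the start site, and TTCCCA, the reverse complement of the TGGGAA core, with its first base at position 42. In the mm9 annotation this window lies inside the body of *Gm5607* (ENSMUSG00000047935.9, chr8:12385771-12436729) but shares 0 bases with its exons. *Gm5607* had 22 and 22 counts in WT and 40 and 46 in the KO-labelled libraries, and its log2 fold change was 0.42 ± 0.60 with an adjusted p of 0.67. These counts are not a measure of *Sox1*. Among its relatives, *Sox2*, which ESCs need for self-renewal, had 6134 and 8770 normalized counts in WT and 9855 and 8814 in the KO-labelled libraries, a log2 fold change of 0.32 ± 0.27 with an adjusted p of 0.40.

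**Figure D2:**
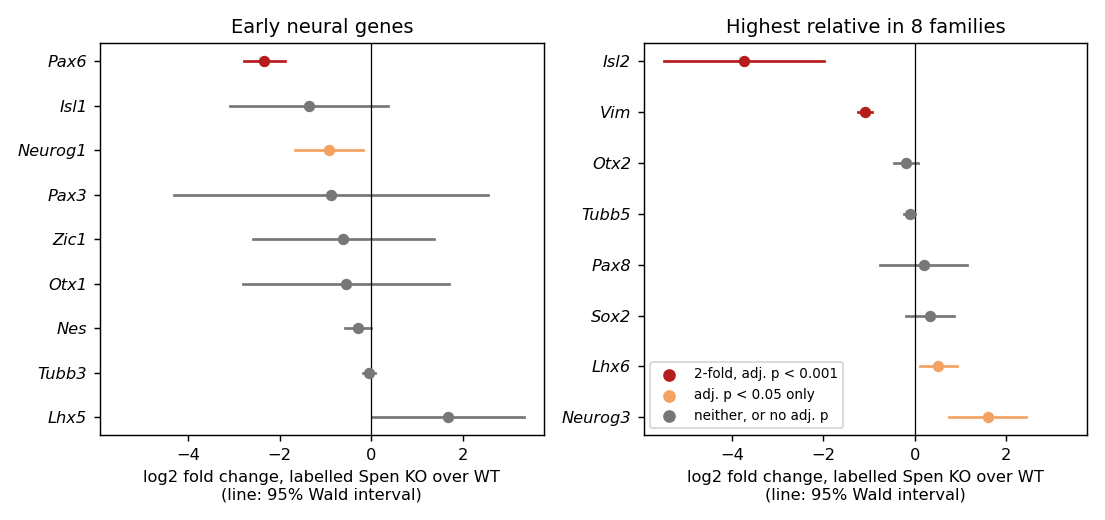
DESeq2 log2 fold changes (labelled *Spen* KO over WT, n = 2 and 2) with 95% Wald intervals, for the 9 early neural genes with a row (left) and the most abundant relative in 8 families (right). *Pax6* at -2.33 is the only called member, and *Isl2* at -3.74 and *Vim* at -1.08 are called among the relatives shown. The intervals of *Pax3*, *Otx1* and *Zic1* are wide because of their low counts.

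The cytoskeletal markers were compared next. *Nes* (ENSMUSG00000004891.10, chr3:87775000-87784373, plus strand, mm9) had 722 and 722 counts in WT and 806 and 930 in the KO-labelled libraries, or 957 and 786 against 702 and 728 after normalization. The KO-labelled libraries were lower without overlap, by a log2 fold change of -0.28 ± 0.14, but the adjusted p was 0.12. With the median of its chromosome removed it was -0.38 with an adjusted p of 0.034. In TPM the *Nes* groups overlapped, at 5.10 and 4.18 in WT and 4.64 and 4.57 in the KO-labelled libraries. *Tubb3* (ENSMUSG00000062380.3, chr8:125935324-125945915, plus strand, mm9) had 7801 and 7817 normalized counts in WT and 7377 and 7717 in the KO-labelled libraries. This was the most precise comparison among the members, with a log2 fold change of -0.05, an interval from -0.19 to 0.09 (95%, Wald) and an adjusted p of 0.67. Near-identical copies elsewhere exist for 17.6% of its exonic sequence, so a part of these counts is uncertain. In TPM *Tubb3* was 143 and 143 in WT and 167 and 166 in the KO-labelled libraries, so its direction depends on the scaling.

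Of the 4 intermediate filament genes listed as relatives of *Nes*, 3 were called lower, against 3.15% of all genes. The list does not hold the whole family, and it was drawn with earlier results of these libraries known. *Vim*, the vimentin of mesenchymal and progenitor cells, had 6681 and 6963 normalized counts in WT and 3159 and 3279 in the KO-labelled libraries, a log2 fold change of -1.08 ± 0.08 with an adjusted p of 2.41e-42. *Nefl*, the light neurofilament of axons, had 2196 and 2129 against 369 and 398, a log2 fold change of -2.49 ± 0.12 with an adjusted p of 4.47e-97. *Ina*, or internexin, an early neuronal filament, had 830 and 1060 against 470 and 388, a log2 fold change of -1.14 ± 0.17. All 3 were lower in both KO-labelled libraries than in either WT library, which adds little to a call made on these same libraries. *Nefm* was low, at 32.5 and 26.7 normalized counts on average, with an adjusted p of 0.79.

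Of the 6 tubulin relatives tested, *Tubb2a*, a beta-tubulin of neurons, was called. It had 3699 and 3752 normalized counts in WT and 1059 and 1010 in the KO-labelled libraries, a log2 fold change of -1.85 ± 0.09 with an adjusted p of 7.61e-86. *Tubb2b* and *Tubb6*, named after their values were seen, were lower at an adjusted p under 0.05 by log2 fold changes of -0.30 and -0.23. *Tubb5*, the most abundant, had a log2 fold change of -0.12 ± 0.06 with an adjusted p of 0.12. Over all families, 36 relatives had a row and 23 were tested, and 5 were called lower and 0 higher by DESeq2 and by edgeR, against 3.15% and 1.36% of all genes with DESeq2. At an unadjusted p under 0.05, 8 of those tested lay below WT and 2 above it, against 19.5% and 20.1% of all genes. Their median log2 fold change was -0.13. The relatives were listed by family with earlier results of these libraries known.

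Other genes of the neural program were taken from a list of 26 progenitor factors and a list of 12 neuronal genes. Of the progenitor factors 14 were tested, with a median log2 fold change of -0.81. DESeq2 called 1 lower and 0 higher, against 3.15% and 1.36% of all genes. The only one called was *Sox11*, a SoxC factor of new neurons, which had 688 and 954 normalized counts in WT and 372 and 362 in the KO-labelled libraries (log2 fold change -1.16 ± 0.18, adjusted p 8.93e-10). Of the others *Gbx2* (-0.79), *Hesx1* (-1.19) and *Zfp521* (-1.34), named after their values were seen, were lower at an adjusted p under 0.05. That made 4 lower by DESeq2, against 15.8% of all genes, and 7 by edgeR, against 20.8%, while 0 were higher by either tool or at an unadjusted DESeq2 p under 0.05. *Gbx2* and *Hesx1* also belong to pluripotent and epiblast cells. Low levels were the rule here too, since 19 progenitor factors were listed under 1 TPM in every library, and *Emx2* was at 0 counts. *Pou3f1* was also listed at 0, but 2 gene records cover nearly the same bases of it on 1 strand, so reads there may not have been assigned and its level is not known here.

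Of the 12 neuronal genes 10 were tested, with a median log2 fold change of -0.58. *Neurod1*, a basic helix-loop-helix factor that acts downstream of the neurogenins, had 139 and 230 normalized counts in WT and 42.7 and 27.4 in the KO-labelled libraries, and was called with a log2 fold change of -2.41 ± 0.39 and an adjusted p of 7.41e-09. *Map2*, the microtubule-associated protein of dendrites, had 672 and 711 against 256 and 308, and was called with -1.29 ± 0.17 and an adjusted p of 1.25e-12. *Stmn2* (-0.48) and *Gap43* (-0.90) were lower and *Elavl3* (0.48) was higher at an adjusted p under 0.05, all 3 named after their values were seen. DESeq2 thus called 2 lower and 0 higher, against 3.15% and 1.36% of all genes, and had 4 lower and 1 higher at the looser threshold, against 15.8% and 16.4%. edgeR at that threshold, and DESeq2 at an unadjusted p under 0.05, each had 5 lower and 1 higher. Among all genes these shares were 20.8% and 19.5% with edgeR, and 19.5% and 20.1% with unadjusted DESeq2. *Neurod4* was at 0. Summed over the neuronal list, normalized counts were 18637 and 19252 in WT and 14000 and 14153 in the KO-labelled libraries. *Stmn2* holds most of these sums, and without it they were 4241 and 4682 against 3654 and 3683. Their part in the difference of *Pax6* and *Neurog1* was not tested.

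**Figure D3:**
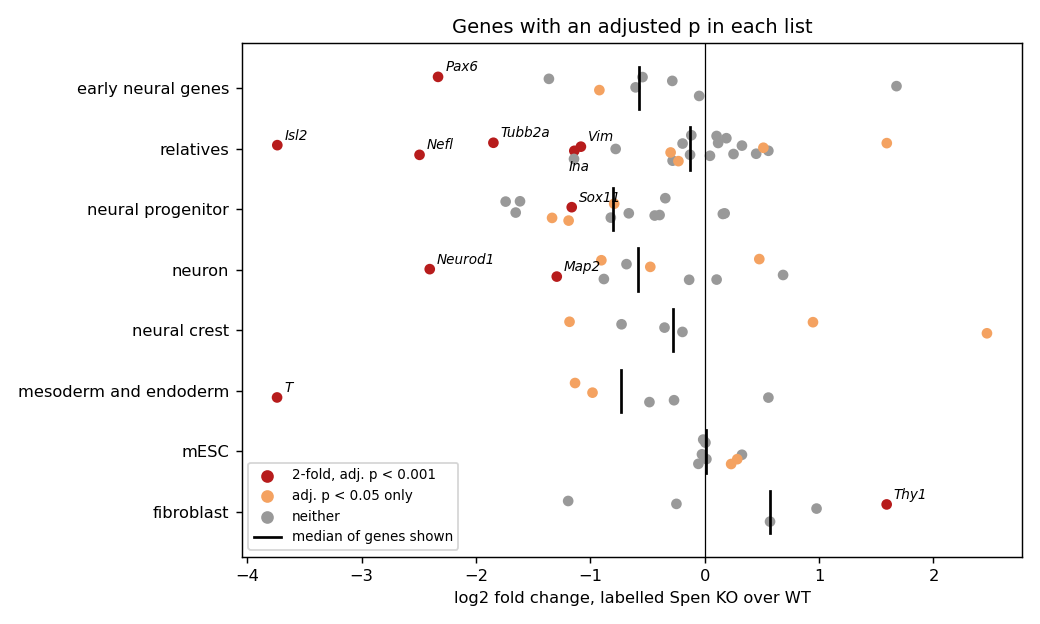
DESeq2 log2 fold changes (labelled *Spen* KO over WT) of every gene with an adjusted p in each list, with black bars at the list medians and called genes named; vertical placement within a row is arbitrary. Called genes of the relatives, progenitor and neuron lists lie to the left of 0, as *Pax6* does, and the only called gene to the right is *Thy1* in the fibroblast list.

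Markers of other cell types were read in the same libraries. The 8 mESC markers summed to 227225 and 221982 normalized counts in WT and 229761 and 240985 in the KO-labelled libraries, and 0 of them were called by DESeq2 or edgeR. *Zfp42* (0.23) and *Dppa5a* (0.28) were higher at an adjusted p under 0.05, as at an unadjusted one, against 16.4% of all genes. All 8 exceeded 1 TPM in at least 1 library, so markers that define mESCs were present. Mesoderm and endoderm markers summed to 1302 and 1385 in WT and 554 and 538 in the KO-labelled libraries. Of 6 tested, *T* (brachyury), a factor of the primitive streak, was called lower, from 401 ± 33.1 to 30.0 ± 2.98 normalized counts, so lower levels were not seen in neural lists alone. At an adjusted p under 0.05, *Eomes* (-0.98) and *Gata4* (-1.13), named after their values were seen, were lower too. These 3 stand against 15.8% of all genes, and the 1 called gene against 3.15%, while edgeR called 2 lower, against 3.27%. Neural crest markers summed to 1930 and 2243 against 2824 and 2666, but without *Ngfr* to 1075 and 1334 against 1067 and 1021. Of the 6 tested, 4 had negative fold changes (median -0.27), and 0 were called by either tool. At the looser threshold *Ngfr* (0.95) and *Tfap2a* (2.47) were higher and *Twist1* (-1.18) was lower, against 16.4% and 15.8% of all genes and again with the same numbers at an unadjusted p under 0.05. Fibroblast markers summed to 211 and 222 against 471 and 536, with *Thy1*, which ESCs can also express, called higher from 128 ± 13.6 to 385 ± 40.9. It was the only one called of 5 tested, against 1.36% of all genes. With edgeR 2 were higher at the looser threshold, against 19.5% of all genes. The other was *Col1a1* (edgeR adjusted p 0.041, named after its value was seen). Without *Thy1* the sums were 92.8 and 84.9 against 115 and 122. The part of these cell types in the neural values was not tested.

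Genes beside the members were also compared. Within 50 kb of a member lay 25 annotated genes, 13 of them tested, and 2 were called, both higher, against 1.36% of all genes. Both flank *Nes*. At an adjusted p under 0.05 all 5 tested neighbours of *Nes* were higher, the others being *Isg20l2* (0.50), *Rrnad1* (0.39) and *Mrpl24* (0.23), named after their values were seen, and *Def8* beside *Tubb3* was lower (-0.28). Among all genes, 16.4% were higher at that threshold. *Crabp2*, a retinoic acid binding protein induced during differentiation, lies 17702 bases upstream and had 175 and 166 normalized counts in WT and 529 and 666 in the KO-labelled libraries (log2 fold change 1.81 ± 0.20, adjusted p 1.47e-17). *Bcan*, the brevican of brain matrix, lies 7080 bases downstream on the other strand and had 19.9 and 30.5 against 105 and 97.8 (2.00 ± 0.46, adjusted p 0.0001). By normalized counts *Nes* between them was not higher in either KO-labelled library, while in TPM both lay between the WT libraries. *Gm20388*, whose body spans that of *Tubb3*, was at 0 counts in every library.

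**Figure D4:**
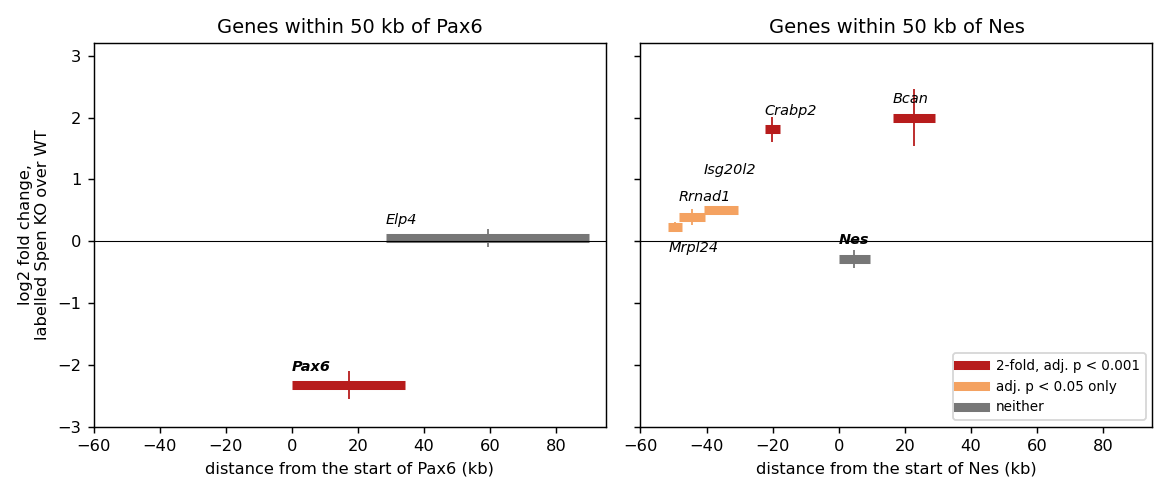
Tested genes within 50 kb of *Pax6* (left) and *Nes* (right), drawn as horizontal bars over their extent in kb from the first base of the member, at the height of their DESeq2 log2 fold change (labelled *Spen* KO over WT). Thin vertical lines are ± 1 SE, and the bar of *Elp4* is cut at the right. *Pax6* at -2.33 overlaps *Elp4* at 0.05, and *Nes* at -0.28 lies between *Crabp2* at 1.81 and *Bcan* at 2.00.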

How the data were processed

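Stranded, ribosomal RNA-depleted paired-end libraries were mapped by the authors to mm9 with STAR, and the deposited values are raw counts per GENCODE vM1 gene from featureCounts. Tool versions, the strand setting and the treatment of multi-mapping reads are not given in the sources used here, and the labels and the methods name different sequencers. Groups and replicate numbers came from the sample titles. A Wald test for group was fitted to all genes with DESeq2 1.42.0 (R 4.3.3), with its default size factors and filtering, and p-values were adjusted over 17710 genes by the Benjamini-Hochberg method. A called gene differed at least 2-fold with an adjusted p under 0.001. Normalized counts are counts divided by size factors, and log2 fold changes are KO-labelled over WT. The fit was also run on simulated data, and the outcome is not given here.

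Alternatives were edgeR 4.0.16 (quasi-likelihood), TMM and upper-quartile size factors, a filter of at least 10 counts in at least 2 libraries, no independent filtering, a replicate block, removal of chromosome medians, other thresholds and leaving out each library. Intervals and floors of 3 counts cover counting error and library spread only, since reads are not independent molecules. Symbols were matched through the annotation and RefSeq synonyms. Exonic copies were alignments of at least 75 bases at 95% identity or more (blastn 2.17.0). Promoters came from RefSeq (GRCm38.p6).

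The members, the lists and the naming rule were chosen with earlier results of these data known. *Neurog1*, *Pax6*, *Otx1*, *Nes*, *Isl1*, *Lhx5* and *Tubb3* were displayed by the study for these same libraries. Named were all members, up to 3 called genes in each list and direction, the most abundant relative per family (1 is not reported here), overlapping genes, called genes within 50 kb, and the 3 genes most like the most changed called member (mean normalized count of at least 50).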

Additional observations from a re-analysis of the deposited data

How the results depend on the processing

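*Pax6* was called lower, and 0 members were called higher, under all alternatives run, including both other thresholds. The count of members lower at an adjusted p under 0.05 was 2 of 8 with an adjusted p. It was 1 of 7 with upper-quartile size factors, 1 of 9 with no independent filtering and 1 of 5 with the replicate block, *Pax6* alone in every case. With a library left out only 4 members had an adjusted p, so a count there cannot be set beside 2 of 8. With chromosome medians removed it was 2, *Nes* in place of *Neurog1*. The count higher was 0, but 1 (*Lhx5*) with edgeR. Of 95 alternative fold changes of single members, 29 had no adjusted p. Of the rest, 56 kept their direction and, where the main fit gave an adjusted p, their side of the threshold. Another 8 moved above 0.05 (*Neurog1*), and 2 moved below it (*Lhx5*, *Nes*). Of the 29, 27 moved by less than the replicate spread, 1 moved beyond it (*Pax3*) and 1 changed sign. The last was *Zic1*, at 0.20 without WT replicate 2 (range -1.10 to 0.20 over single libraries left out). Leaving out single libraries gave -2.42 to -2.23 for *Pax6*, -1.10 to -0.76 for *Neurog1*, -0.42 to -0.13 for *Nes*, 1.29 to 1.99 for *Lhx5* and -1.76 to -0.83 for *Isl1*. In these fits the lone library is assumed to vary like the others. Same-numbered replicates share only a number: the correlation of their deviations from the group means was -0.018. *Otx1*, *Zic1* and *Pax3* had the lowest mean normalized counts of the members with a row. The main DESeq2 fit gave *Pax3* no adjusted p, and with no independent filtering its DESeq2 adjusted p was 0.88.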
